A study of Homo sapiens with 12 samples.

Results

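Mitogen-activated protein kinases (MAP kinases) sit at the end of relays in which a MAP4K or another upstream kinase switches on a MAP3K, which phosphorylates a MAP2K, which in turn phosphorylates the MAP kinase itself. The ERK branch carries growth factor and RAS signals, and the p38 and JNK branches carry stress and cytokine signals. Dual-specificity phosphatases (DUSPs) close the loop, since several of them remove the activating phosphates from MAP kinases and are themselves induced by the branch they restrain. Colon cancers often carry activating mutations in RAS or BRAF, and the HT29 line used here has an activating BRAF mutation. The mRNA levels of these genes were examined in HT29 cells, a human colon cancer line with mutant p53, after silencing of LRH-1 (NR5A2), an orphan nuclear receptor of gut, liver and pancreas.

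The genes were all those whose symbol on the Illumina HumanHT-12 array began with MAP2K, MAP3K, MAP4K, MAPK or DUSP, each read through its probe with the brightest mean over the 12 arrays. The rule found 60 genes among 7331 with a named probe, from 81 probes, and 16 of the 60 had more than 1 probe. The symbols decided membership, so the set also held genes that share a name and not an enzymatic role, such as MAPKAP1, a subunit of the TOR complex mTORC2, and DUSP11, a phosphatase of RNA. MAPK14 (p38 alpha), MAP2K6 and MAP2K7, central kinases of the p38 and JNK branches, had no named probe in the table used and were not analysed here.

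HT29 cells were reverse-transfected with lipid at 5 nM with siLUC, a non-targeting siRNA against luciferase, or with 1 of 2 siRNAs against LRH-1, siLRH-1 #1 or siLRH-1 #2, and total RNA was taken 24 h later. Each of the 3 groups had 4 arrays, labelled replicates 1 to 4, and p-values measure the spread between these samples of a single line. The groups thus shared the cell line, the transfection and the siRNA concentration. They differed in the siRNA, and each LRH-1 siRNA was compared with 1 shared set of 4 siLUC arrays. LRH-1 itself had no named probe in the normalised table used here. Its knockdown could thus not be read from these values, and the comparisons below are of siRNAs. Values are log2 signals, quantile-normalised across arrays, in which a change common to all RNA of a cell would not be seen. A member was called changed where the Benjamini-Hochberg adjusted p of the limma fit, taken over all 16381 probes, was under 0.05.

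The 12 arrays had medians of 6.56 to 6.57 and no missing value. Of 15 colon epithelial marker genes 12 were measured, with mean log2 signals of 5.86 to 13.44, 10 of them above the median of all probes, among them EPCAM (13.44), KRT8 (12.52) and LGALS4 (11.98), while FABP1 (5.86) and GPA33 (6.26) were dim. Of 11 markers of other cell types 4 were measured, COL1A2 at 5.98, CD79A at 6.23, ALB at 7.24 and LYZ at 13.70. One array stood apart. siLRH-1 #2 replicate 2 had 50 probes at least 0.5 above every other array, against 0 to 1 in the other 11 arrays, and it is named below beside the calls that change without it.

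The promoters of 4 members are shown because the results turn on these genes. MAP3K4 and DUSP8 were the only members called with both siRNAs, and MAP2K3 and MAP3K5 were called with siLRH-1 #2 and held a match to the core of the LRH-1 recognition sequence. Sequences are those of RefSeq (GRCh38.p14), from 250 bases before the transcription start to 50 after it, on the gene's own strand. Capitals mark NCAAGGNCN on either strand, where N is any base, and TGACGTCA, the full cyclic AMP response element, which reads the same on both strands.
MAP3K4, chr6:160991519-160991818, plus strand: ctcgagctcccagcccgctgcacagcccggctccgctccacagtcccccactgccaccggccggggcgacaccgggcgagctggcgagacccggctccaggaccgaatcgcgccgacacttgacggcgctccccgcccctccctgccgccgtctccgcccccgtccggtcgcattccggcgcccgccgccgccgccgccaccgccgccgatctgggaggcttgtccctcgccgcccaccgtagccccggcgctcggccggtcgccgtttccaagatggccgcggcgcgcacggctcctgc
DUSP8, chr11:1572222-1572521, minus strand: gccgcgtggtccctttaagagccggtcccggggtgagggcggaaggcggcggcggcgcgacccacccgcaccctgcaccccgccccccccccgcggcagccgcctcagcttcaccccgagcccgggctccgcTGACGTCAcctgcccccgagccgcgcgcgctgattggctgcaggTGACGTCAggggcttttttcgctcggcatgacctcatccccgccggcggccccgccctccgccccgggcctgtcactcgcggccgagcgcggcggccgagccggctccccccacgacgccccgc
MAP2K3, chr17:21284461-21284760, plus strand: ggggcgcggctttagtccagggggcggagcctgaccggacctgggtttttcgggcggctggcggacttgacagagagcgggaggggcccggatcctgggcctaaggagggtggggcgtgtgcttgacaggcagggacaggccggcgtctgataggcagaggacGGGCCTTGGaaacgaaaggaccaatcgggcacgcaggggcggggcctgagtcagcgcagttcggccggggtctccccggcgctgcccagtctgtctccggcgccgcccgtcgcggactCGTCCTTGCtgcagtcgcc
MAP3K5, chr6:136793042-136793341, minus strand: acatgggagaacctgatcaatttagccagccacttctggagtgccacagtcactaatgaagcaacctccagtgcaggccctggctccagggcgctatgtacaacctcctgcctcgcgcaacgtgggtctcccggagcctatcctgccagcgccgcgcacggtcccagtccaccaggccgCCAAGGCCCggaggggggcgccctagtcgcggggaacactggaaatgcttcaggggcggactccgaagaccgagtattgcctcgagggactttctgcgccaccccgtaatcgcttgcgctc

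The MAP3K4 window held neither motif. The DUSP8 window held TGACGTCA at 2 places, with first bases at positions -118 and -74 from the start site. Among 27305 promoters of this length 540 (1.98%) held it and 18 held it more than once, and of the 54 members with a listed promoter 5 (9.26%) held it, DUSP1 (-125), DUSP8, MAP3K13 (-104), MAPK10 (-79) and MAPK8IP3 (-107). This motif was chosen after the sequences had been seen. MAP2K3 held NCAAGGNCN on the opposite strand at -87 and at 31, and MAP3K5 held it on its own strand at -71. That motif stood in 16.6% of all promoters and in 9 of the 54 members (16.7%). Limiting the unspecified bases to those of the LRH-1 consensus left 719 promoters in all (2.63%) and 0 members. These matches describe the letters in the window only.

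Across the 60 genes, siLRH-1 #1 lowered MAPKAPK5 and raised MAPK6 and several phosphatases, whereas siLRH-1 #2 lowered kinases of the p38 and JNK relays and DUSP18 and raised 3 MAP3K genes. With siLRH-1 #1, 7 of the 60 members were called, 6 higher and 1 lower (11.7% of members, against 10.2% of all named genes, 5.05% higher and 5.17% lower), and 15 had an unadjusted p under 0.05. With siLRH-1 #2, 10 members were called, 4 higher and 6 lower (16.7% of members, against 10.0% of all named genes, 5.14% higher and 4.88% lower), and 19 had an unadjusted p under 0.05. Called members were MAPKAPK5, MAPK6, DUSP1, DUSP5 and DUSP3 with siLRH-1 #1 alone, and MAP2K3, MAP2K4, MAPK9, MAPKAPK2, MAP3K5, MAP3K6, DUSP18 and DUSP11 with siLRH-1 #2 alone. MAP3K4 and DUSP8 were called higher with both (2 members, where 1.84% of all named genes were called higher with both). Since the comparisons share the siLUC arrays, nothing is read from that count. The median log2 change was 0.05 over the members and 0.01 over all named genes with siLRH-1 #1, and 0.01 over both with siLRH-1 #2. The 4 arrays of the siRNA did not overlap the 4 siLUC arrays in 13 members with either siRNA, 21.7% of the members, against 18.6% of named genes for siLRH-1 #1 and 17.8% for siLRH-1 #2.

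**Figure D1:**
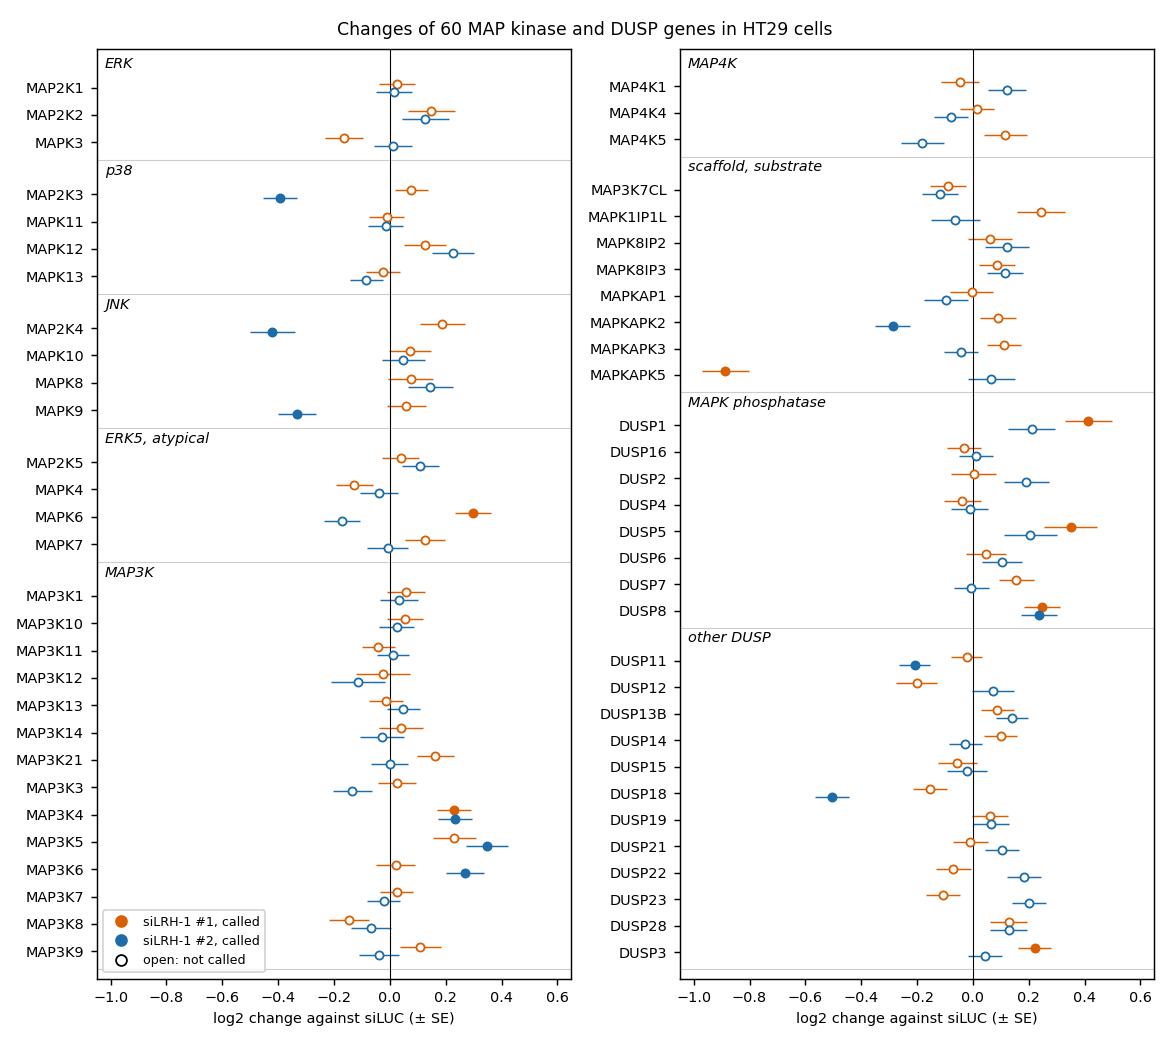
Log2 change against siLUC of all 60 members, grouped by role, with siLRH-1 #1 in orange and siLRH-1 #2 in blue, filled where called and open where not, with the standard error of the fit as bars (n = 4 arrays per group). MAPKAPK5 lies at -0.89 with siLRH-1 #1 and at 0.07 with siLRH-1 #2, and MAP2K3, MAP2K4, MAPK9 and DUSP18 lie to the left with siLRH-1 #2 alone.

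The changes were small. Only MAPKAPK5 moved by 1.5-fold or more against siLUC, with siLRH-1 #1, and 0 members did so with siLRH-1 #2. Moves of at least 1.2-fold were seen in 4 members with siLRH-1 #1 and in 7 with siLRH-1 #2. The standard error of a difference was 0.06 to 0.10 over the members, with a median of 0.07, and the SD among 4 arrays of a group had a median of 0.09. Of the 17 members below the median probe signal (6.55), 1 was called against siLUC (DUSP8), and of the 43 above it 14 were. The same split was not counted over all named genes, so nothing particular to the members is read from it. Each probe had passed the authors' detection filter in at least 1 sample, but a dim probe can sit near background, where a change in its mRNA would be understated.

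In the ERK branch, 3 kinases were measured and 0 were called by limma on the chosen probe in any of the 3 comparisons. Of all named genes, 10.2%, 10.0% and 14.7% were called with siLRH-1 #1, with siLRH-1 #2 and between the siRNAs. With so few kinases measured, nothing particular to this branch is read from that count. On the chosen probe, 1 of the 3 kinases had an unadjusted p under 0.05 with siLRH-1 #1 and 0 with siLRH-1 #2. MAP2K1 (MEK1), the kinase directly above ERK, stood at 11.24 ± 0.08 (SD, n = 4) in siLUC, 11.27 ± 0.10 after siLRH-1 #1 and 11.26 ± 0.07 after siLRH-1 #2. Its change was 0.03 (95% interval -0.11 to 0.16) with siLRH-1 #1 and 0.01 (-0.12 to 0.15) with siLRH-1 #2. A change within these bounds is thus compatible with the values. The bounds are not the smallest change that the adjusted test could call. MAP2K2 (MEK2) differed by 0.15 (-0.03 to 0.32) with siLRH-1 #1 and by 0.13 (-0.05 to 0.30) with siLRH-1 #2. MAPK3 (ERK1) read 9.75, 9.77, 9.92 and 9.78 in siLUC, 9.73, 9.58, 9.68 and 9.57 with siLRH-1 #1, and 9.76, 9.75, 9.76 and 9.99 with siLRH-1 #2. All 4 siLRH-1 #1 arrays lay below all 4 siLUC arrays, by 0.16 (interval 0.02 to 0.30 lower), but the adjusted p was 0.173 and MAPK3 was not called. Between siLRH-1 #1 and siLRH-1 #2 the difference was -0.18 (adjusted p = 0.112). The second MAPK3 probe (mean 8.95) was not called against siLUC but was called between the siRNAs, at -0.21 (adjusted p = 0.0341). The mean over the MAPK3 probes was also called there (adjusted p = 0.0107).

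In the p38 and JNK branches, 3 of the 8 kinases measured fell with siLRH-1 #2, where 4.88% of all named genes did. With siLRH-1 #1 limma called 0 of the 8, where 10.2% of all named genes were called, and 1 had an unadjusted p under 0.05. MAP2K3 (MKK3), which activates p38, read 9.64, 9.78, 9.74 and 9.73 in siLUC, 9.74, 9.76, 9.82 and 9.87 with siLRH-1 #1, and 9.39, 9.31, 9.39 and 9.23 with siLRH-1 #2. All siLRH-1 #2 arrays lay below all others. The change was -0.39 (SE 0.06, 1.31-fold lower, adjusted p = 0.000156) with siLRH-1 #2 and 0.08 (adjusted p = 0.555) with siLRH-1 #1. MAP2K3 had further probes, 1 of which (mean 7.72) also fell, by 0.35 (adjusted p = 0.00308). The other 3 were dimmer (5.99 to 6.83), were not called and moved by -0.07 to -0.05. The brightest of these 3 lay above the median probe signal. The mean over its probes was -0.19 (adjusted p = 0.0173).

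MAP2K4 (MKK4), which phosphorylates JNK and also p38, read 8.83, 8.81, 8.61 and 8.81 in siLUC, 8.96, 8.84, 8.86 and 9.15 with siLRH-1 #1, and 8.26, 8.56, 8.28 and 8.27 with siLRH-1 #2. The siLRH-1 #2 arrays were again the lowest of the 12, with replicate 2 nearest to the controls. It fell by 0.42 with siLRH-1 #2 (SE 0.08, 1.34-fold, adjusted p = 0.00163) and its value with siLRH-1 #1 was 0.19 (adjusted p = 0.199). MAPK9 (JNK2), a kinase that MAP2K4 activates, read 9.72, 9.99, 9.95 and 9.99 in siLUC, 9.88, 10.07, 9.91 and 10.03 with siLRH-1 #1, and 9.50, 9.56, 9.60 and 9.66 with siLRH-1 #2. Its siLRH-1 #2 arrays did not overlap either group. The change was -0.33 (SE 0.07, 1.26-fold lower, adjusted p = 0.00363) with siLRH-1 #2 and 0.06 (adjusted p = 0.724) with siLRH-1 #1. The second probe fell with siLRH-1 #2 for both genes, by 0.35 for MAP2K4 (adjusted p = 0.000832) and by 0.22 for MAPK9 (adjusted p = 0.0248).

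The other kinases of these branches were not called. MAPK8 (JNK1), the close relative of JNK2, read 6.88 ± 0.13 in siLUC, 6.95 ± 0.13 after siLRH-1 #1 and 7.02 ± 0.14 after siLRH-1 #2, all on a dimmer probe, with a change of 0.15 (interval -0.02 to 0.31) for siLRH-1 #2. MAPK13 (p38 delta), a p38 form of epithelia, changed by -0.02 (interval -0.15 to 0.10) and -0.08 (-0.21 to 0.04). MAPK10 (JNK3, chiefly neural) and MAPK11 (p38 beta, mean signal 6.19) lay below the median probe, and neither was called. MAPK12 (p38 gamma), also dim, read 6.23, 6.12, 6.01 and 6.20 in siLUC and 6.32, 6.62, 6.25 and 6.26 with siLRH-1 #2, a difference of 0.23 that was not called (adjusted p = 0.0763). Its highest array was siLRH-1 #2 replicate 2.

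MAPKAPK5, MAPKAPK2 and MAPKAPK3 are protein kinases that act below MAP kinases, and only the first 2 of these 3 were called, with different siRNAs. MAPKAPK5 (MK5 or PRAK), a substrate of the atypical MAP kinase ERK3 and of p38, gave the largest change among the 60 members with either siRNA. It read 10.46, 10.09, 10.20 and 10.34 in siLUC, 9.52, 9.34, 9.45 and 9.24 with siLRH-1 #1, and 10.38, 10.18, 10.29 and 10.51 with siLRH-1 #2. The siLRH-1 #1 arrays all lay below the other 8, and the siLRH-1 #2 arrays overlapped siLUC. The fall with siLRH-1 #1 was -0.89 (SE 0.08, 1.85-fold, adjusted p = 3.7e-07), the value with siLRH-1 #2 was 0.07 (interval -0.11 to 0.24, adjusted p = 0.739), and the siRNAs differed by 0.95 (lower with #1, adjusted p = 7.83e-08). Its other probe gave -0.67 (adjusted p = 2.44e-06) and 0.08 (adjusted p = 0.631).

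MAPKAPK2 (MK2), the p38 target that governs the stability and translation of AU-rich mRNAs, read 8.46, 8.36, 8.49 and 8.31 in siLUC, 8.43, 8.55, 8.39 and 8.59 with siLRH-1 #1, and 8.13, 8.19, 8.04 and 8.11 with siLRH-1 #2. Its siLRH-1 #2 arrays were the lowest 4 of the 12. It fell by 0.29 with siLRH-1 #2 (SE 0.06, 1.22-fold, adjusted p = 0.0063), with a value of 0.09 for siLRH-1 #1 (adjusted p = 0.506). MAPKAPK3 gave 0.11 (adjusted p = 0.355) and -0.04 (adjusted p = 0.788). Thus 4 members of the p38 and JNK relays (MAP2K3, MAP2K4, MAPK9 and MAPKAPK2) fell with siLRH-1 #2, and each also differed from siLRH-1 #1 in the direct comparison, by 0.47, 0.61, 0.39 and 0.38 (adjusted p = 9.13e-06, 1.42e-05, 0.000459 and 0.000288). These 4 calls against siLUC held when each of the 12 arrays was left out in turn.

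MAPK6 (ERK3), an atypical MAP kinase that binds MAPKAPK5, rose where MAPKAPK5 fell. It read 10.96, 11.07, 11.17 and 10.99 in siLUC, 11.26, 11.34, 11.37 and 11.42 with siLRH-1 #1, and 10.75, 10.87, 10.94 and 10.95 with siLRH-1 #2. The 3 groups did not overlap, siLRH-1 #1 being the highest and siLRH-1 #2 the lowest. MAPK6 rose by 0.30 with siLRH-1 #1 (SE 0.07, 1.23-fold, adjusted p = 0.00515), while the value with siLRH-1 #2 was -0.17 and was not called (adjusted p = 0.128). Between the siRNAs the difference was 0.47 (adjusted p = 2.62e-05). MAP2K5, MAPK4 and MAPK7 (ERK5) were not called.

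**Figure D2:**
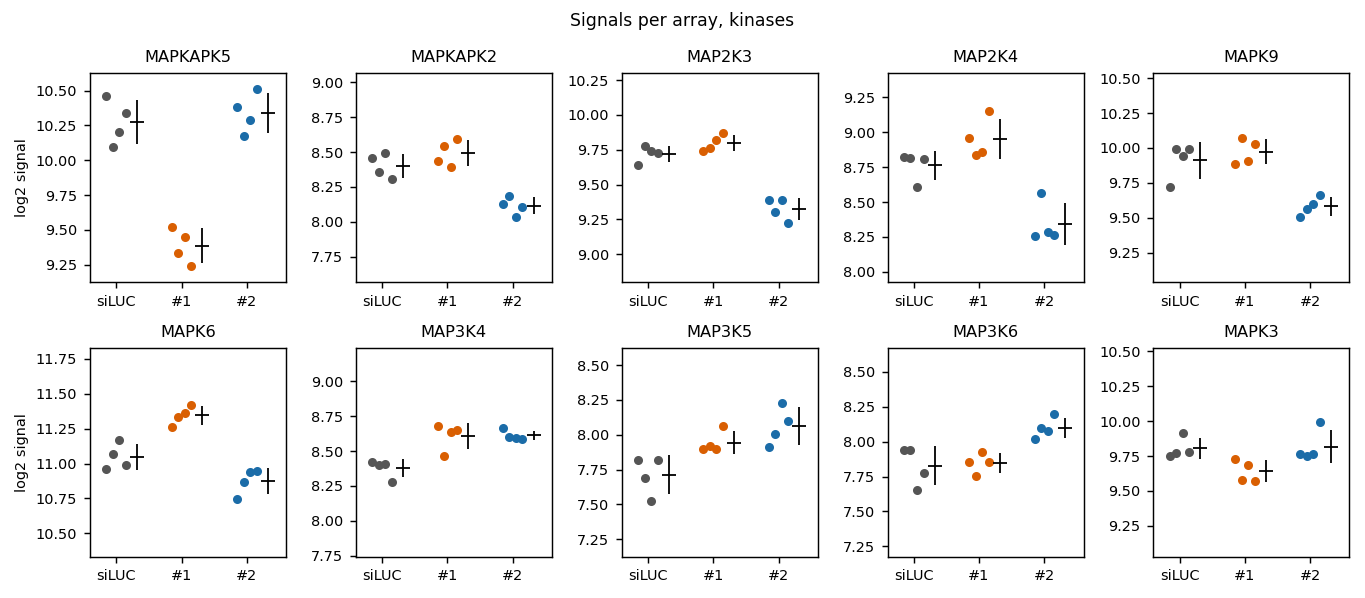
Log2 signal per array of the kinases on which the comparisons turn, with siLUC in grey, siLRH-1 #1 in orange and siLRH-1 #2 in blue, points being single arrays in replicate order and bars the mean ± SD (n = 4), each panel spanning 1.5 log2 units on an axis that does not start at 0. MAPKAPK5 drops in the siLRH-1 #1 arrays only, from 10.27 to 9.39, and MAP2K3, MAP2K4, MAPK9 and MAPKAPK2 drop in the siLRH-1 #2 arrays only.

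Of 14 MAP3K genes measured, 1 was called higher with siLRH-1 #1 and 3 with siLRH-1 #2, where 5.05% and 5.14% of all named genes were. By limma 0 were called lower, where 5.17% and 4.88% of all named genes were. MAP3K4 (MEKK4), a kinase above p38 and JNK that is activated by GADD45 proteins, read 8.42, 8.40, 8.41 and 8.28 in siLUC, 8.68, 8.47, 8.64 and 8.65 with siLRH-1 #1, and 8.66, 8.60, 8.59 and 8.59 with siLRH-1 #2. Every array of both siRNAs lay above every siLUC array. It rose by 0.23 with each, 1.17-fold with siLRH-1 #1 (adjusted p = 0.0211) and 1.18-fold with siLRH-1 #2 (adjusted p = 0.0195), and the siRNAs differed by -0.00 (interval -0.13 to 0.12). The call with siLRH-1 #1 was lost when replicate 4 of siLUC, or replicate 1, 3 or 4 of siLRH-1 #1, was dropped (adjusted p up to 0.0887), and that with siLRH-1 #2 when replicate 4 of siLUC or replicate 1 of siLRH-1 #2 was (up to 0.0724).

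MAP3K5 (ASK1), the kinase that thioredoxin holds inactive until oxidative stress, read 7.82, 7.69, 7.52 and 7.82 in siLUC, 7.90, 7.92, 7.90 and 8.06 with siLRH-1 #1, and 7.91, 8.01, 8.23 and 8.10 with siLRH-1 #2. Both siRNA groups lay above siLUC and overlapped each other. It rose by 0.35 with siLRH-1 #2 (SE 0.08, 1.27-fold, adjusted p = 0.0058), and the value with siLRH-1 #1 was 0.23 (adjusted p = 0.0758). A difference between the siRNAs was not detected (-0.12, adjusted p = 0.422), so the call with one siRNA alone does not show that they differ. MAP3K6 (ASK2), which pairs with ASK1, read 7.94, 7.94, 7.65 and 7.78 in siLUC and 8.02, 8.10, 8.08 and 8.20 with siLRH-1 #2, and it rose by 0.27 (1.21-fold, adjusted p = 0.0177) against 0.02 with siLRH-1 #1 (adjusted p = 0.921). That call was lost when replicate 3 or 4 of siLUC, or replicate 4 of siLRH-1 #2, was dropped (adjusted p up to 0.0813). Among 3 MAP4K genes 0 were called against siLUC by limma, where 10.2% of all named genes were with siLRH-1 #1 and 10.0% with siLRH-1 #2. Of the 3, 1 had an unadjusted p under 0.05 with siLRH-1 #2 and 0 with siLRH-1 #1.

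Of 10 listed MAP kinase phosphatases, the DUSPs that bind MAP kinases directly, 8 were measured. Of these, 3 rose with siLRH-1 #1 (DUSP1, DUSP5 and DUSP8), 1 rose with siLRH-1 #2 (DUSP8) and 0 were called lower by limma. Among all named genes, 5.05% and 5.14% were called higher, and 5.17% and 4.88% lower. DUSP1 (MKP-1), a nuclear phosphatase of p38 and JNK, read 7.52, 7.63, 7.60 and 7.75 in siLUC, 8.09, 7.90, 8.08 and 8.09 with siLRH-1 #1, and 7.82, 8.14, 7.69 and 7.70 with siLRH-1 #2. The siLRH-1 #1 arrays lay above all siLUC arrays, whereas among the siLRH-1 #2 arrays replicate 2 stood above the rest and 2 others lay within the siLUC range. It rose by 0.41 with siLRH-1 #1 (SE 0.08, 1.33-fold, adjusted p = 0.00271), and the value with siLRH-1 #2 was 0.21 (adjusted p = 0.151).

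DUSP5, a nuclear phosphatase specific for ERK and induced by it, read 8.76, 8.68, 8.65 and 8.83 in siLUC, 9.18, 8.97, 9.06 and 9.12 with siLRH-1 #1, and 8.88, 9.34, 8.79 and 8.73 with siLRH-1 #2. The same array, siLRH-1 #2 replicate 2, was the highest of its group. DUSP5 rose by 0.35 with siLRH-1 #1 (SE 0.10, 1.28-fold, adjusted p = 0.0258), and the value with siLRH-1 #2 was 0.20 (adjusted p = 0.235). The siLRH-1 #1 call did not survive leaving out replicate 2 or 3 of siLUC, or replicate 1, 3 or 4 of siLRH-1 #1 (adjusted p up to 0.0814). DUSP6 (MKP-3), the cytoplasmic ERK phosphatase, was named after its values were seen. It read 9.50, 9.80, 9.49 and 9.48 with siLRH-1 #2 against 9.56, 9.46, 9.39 and 9.44 in siLUC, so that replicate 2 stood alone on this probe as well. DUSP6 was called with neither siRNA (0.05, adjusted p = 0.806, and 0.10, adjusted p = 0.454). Its second probe (mean 6.67) read 6.71, 6.77, 6.66 and 6.49 with siLRH-1 #2. There replicate 2 did not stand alone, lying below siLRH-1 #1 replicate 3 (6.82), and neither siRNA was called (adjusted p = 0.385 and 0.838).

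Without siLRH-1 #2 replicate 2, the siLRH-1 #2 value against siLUC was 0.11 for DUSP1 (adjusted p = 0.452) and 0.07 for DUSP5 (adjusted p = 0.66), and the differences between the siRNAs became called, at 0.30 for DUSP1 (adjusted p = 0.00643) and 0.28 for DUSP5 (adjusted p = 0.00946). With all arrays these differences were 0.20 (adjusted p = 0.147) and 0.15 (adjusted p = 0.419). The calls of DUSP1 and DUSP5 with siLRH-1 #1 held without that array (adjusted p = 0.000196 and 0.00086). What set this array apart was not tested.

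DUSP8, a phosphatase of JNK and p38, read 6.24, 6.22, 6.27 and 6.22 in siLUC, 6.38, 6.54, 6.49 and 6.52 with siLRH-1 #1, and 6.47, 6.63, 6.32 and 6.48 with siLRH-1 #2. Every siRNA array lay above every siLUC array. It rose by 0.25 with siLRH-1 #1 (1.19-fold, adjusted p = 0.0204) and by 0.24 with siLRH-1 #2 (1.18-fold, adjusted p = 0.0265), and the siRNAs differed by 0.01 (interval -0.12 to 0.14). The probe was dim, at a mean of 6.40 where the median probe stood at 6.55. The call with siLRH-1 #1 was lost when replicate 2 or 4 of siLUC or of siLRH-1 #1 was left out (adjusted p up to 0.0741), and that with siLRH-1 #2 when replicate 1, 2 or 4 of siLUC or of siLRH-1 #2 was (up to 0.101). DUSP2, DUSP4, DUSP7 and DUSP16 were not called. DUSP4, another nuclear phosphatase induced by ERK, gave -0.04 and -0.01.

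Among 12 other dual-specificity phosphatases, siLRH-1 #1 raised 1 (8.33%, against 5.05% of all named genes) and siLRH-1 #2 lowered 2 (16.7%, against 4.88%). DUSP3 (VHR), a small phosphatase that acts on ERK and JNK, read 10.08, 10.11, 9.96 and 10.05 in siLUC, 10.31, 10.22, 10.21 and 10.35 with siLRH-1 #1, and 10.09, 10.16, 10.13 and 10.00 with siLRH-1 #2. It was higher in 4 of 4 siLRH-1 #1 arrays than in any other array, by 0.22 against siLUC (1.17-fold, adjusted p = 0.0262), and the call was lost when replicate 3 or 4 of siLUC, or replicate 1 or 4 of siLRH-1 #1, was dropped (adjusted p up to 0.11). Between the siRNAs DUSP3 differed by 0.18 and was not called (adjusted p = 0.0655, called in 5 other settings). DUSP18 read 7.37, 7.40, 7.44 and 7.38 in siLUC, 7.20, 7.20, 7.36 and 7.21 with siLRH-1 #1, and 6.88, 6.81, 7.02 and 6.85 with siLRH-1 #2. The 3 groups did not overlap and siLRH-1 #2 was the lowest. DUSP18 fell by 0.50 with siLRH-1 #2 (SE 0.06, 1.42-fold, adjusted p = 1.01e-05), the largest change of a member with that siRNA, and its value with siLRH-1 #1 was -0.15 (adjusted p = 0.165).

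DUSP11, which removes phosphates from the 5′ end of RNA and is not a MAP kinase phosphatase, read 10.04, 10.10, 9.97 and 10.08 in siLUC, 9.97, 10.03, 10.00 and 10.09 with siLRH-1 #1, and 9.82, 9.83, 9.85 and 9.84 with siLRH-1 #2. The siLRH-1 #2 arrays lay below all others, 0.21 lower than siLUC (1.16-fold, adjusted p = 0.0233). The call was lost when replicate 2 or 4 of siLUC, or replicate 1 of siLRH-1 #2, was dropped (adjusted p up to 0.0781), and the second, dimmer DUSP11 probe (mean 6.61) was not called (adjusted p = 0.663).

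**Figure D3:**
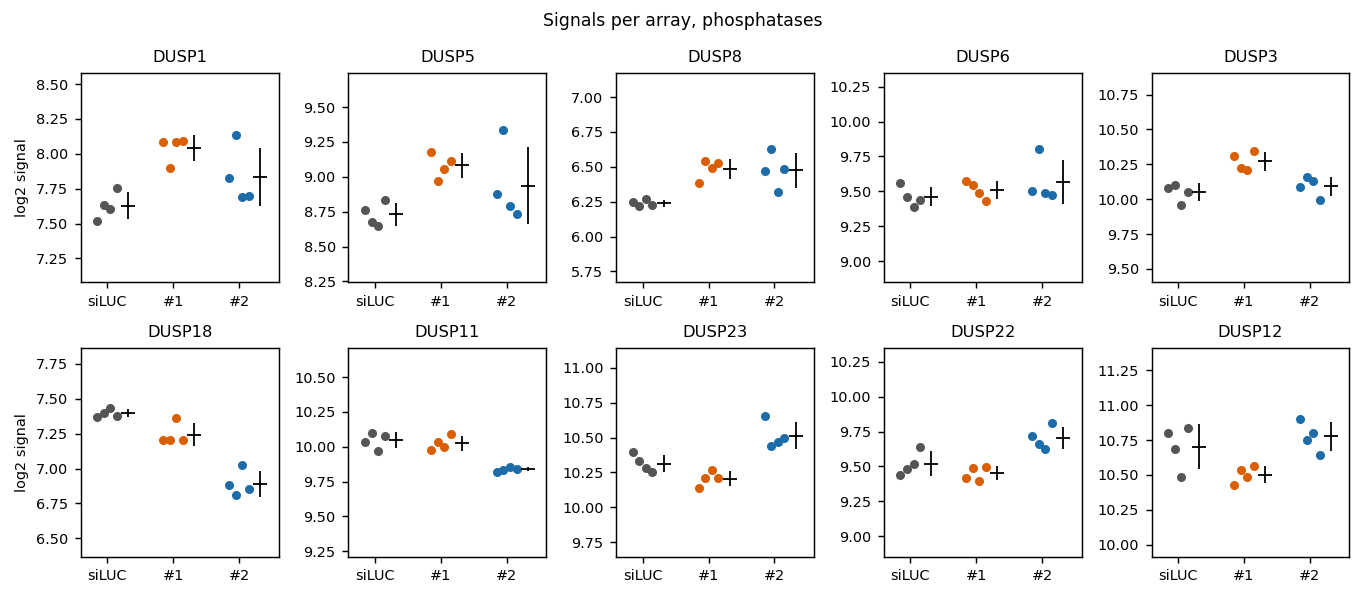
Log2 signal per array of 10 phosphatases, with siLUC in grey, siLRH-1 #1 in orange and siLRH-1 #2 in blue, points being single arrays in replicate order and bars the mean ± SD (n = 4), each panel spanning 1.5 log2 units on an axis that does not start at 0. The second blue point, siLRH-1 #2 replicate 2, stands above its group for DUSP1 (8.14), DUSP5 (9.34) and DUSP6 (9.80), and DUSP8 is higher in all 8 siRNA arrays than in siLUC.

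The direct comparison of the siRNAs called more members than either comparison with siLUC. Here 14 members were called, 9 of which stood higher in the siLRH-1 #1 arrays and 5 lower (23.3% of members, against 14.7% of all named genes, 6.97% higher and 7.73% lower), and 24 had an unadjusted p under 0.05. Arrays of the siRNAs did not overlap in 18 members (30%, against 20.4% of named genes). Of the 15 members called with at least 1 siRNA against siLUC, 9 also differed between the siRNAs and 6 did not. That share was not counted over all named genes, so it is not read as particular to the members. The 9 were MAPKAPK5, MAPK6, MAP2K3, MAP2K4, MAPK9, MAPKAPK2, MAP3K6, DUSP18 and DUSP11. The DUSP11 call (0.19, adjusted p = 0.0332) was lost when replicate 2 or 4 of siLRH-1 #1, or any replicate of siLRH-1 #2, was dropped (up to 0.123, and 0.0608 without siLRH-1 #2 replicate 2) and with only these groups in the fit (0.0506). The MAP3K6 call (-0.25, adjusted p = 0.0215) was lost when replicate 2 or 4 of siLRH-1 #1, or replicate 4 of siLRH-1 #2, was dropped (up to 0.0819) and without moderation of the spread (0.0636).

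A further 5 members were called between the siRNAs and not against siLUC. DUSP23 read 10.14, 10.21, 10.27 and 10.21 with siLRH-1 #1 and 10.65, 10.44, 10.47 and 10.49 with siLRH-1 #2, with siLUC between them at 10.25 to 10.40, a difference of -0.31 (adjusted p = 0.00154). Its siLRH-1 #2 arrays all lay above siLUC, by 0.20, just short of a call (adjusted p = 0.0519) that was made in 8 other settings, among them without siLRH-1 #2 replicate 2 (adjusted p = 0.047). DUSP22 (JKAP), a phosphatase that acts on JNK signalling, was likewise lower with siLRH-1 #1, by 0.25 (adjusted p = 0.00903), with a value of 0.18 for siLRH-1 #2 against siLUC (adjusted p = 0.081, called in 2 other settings). The calls of DUSP23 and DUSP22 between the siRNAs held when each array was left out. DUSP12 was lower by 0.27 (adjusted p = 0.0187). This call was lost when replicate 1 of either siRNA was dropped (adjusted p up to 0.0815). MAP4K5, a germinal centre kinase, was higher with siLRH-1 #1 by 0.30 (adjusted p = 0.0148), lost without the same arrays (up to 0.0732), and its other probe was not called (adjusted p = 0.164). MAPK1IP1L was higher by 0.31 (adjusted p = 0.0247) with arrays that overlapped, and was lost when replicate 1, 3 or 4 of siLRH-1 #1, or replicate 3 or 4 of siLRH-1 #2, was dropped (up to 0.0917).

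The second probes gave a check that did not use the chosen probe. Of the 20 members called in at least 1 of the 3 comparisons, 7 had more than 1 probe. In 5 of these, MAPKAPK5, MAP2K3, MAP2K4, MAPK9 and DUSP22, another probe was called in the same direction, and in 0 was another probe called in the opposite direction. Probes of a gene were measured on the same RNA, so they bear on the probe and not on the spread between samples.

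**Figure D4:**
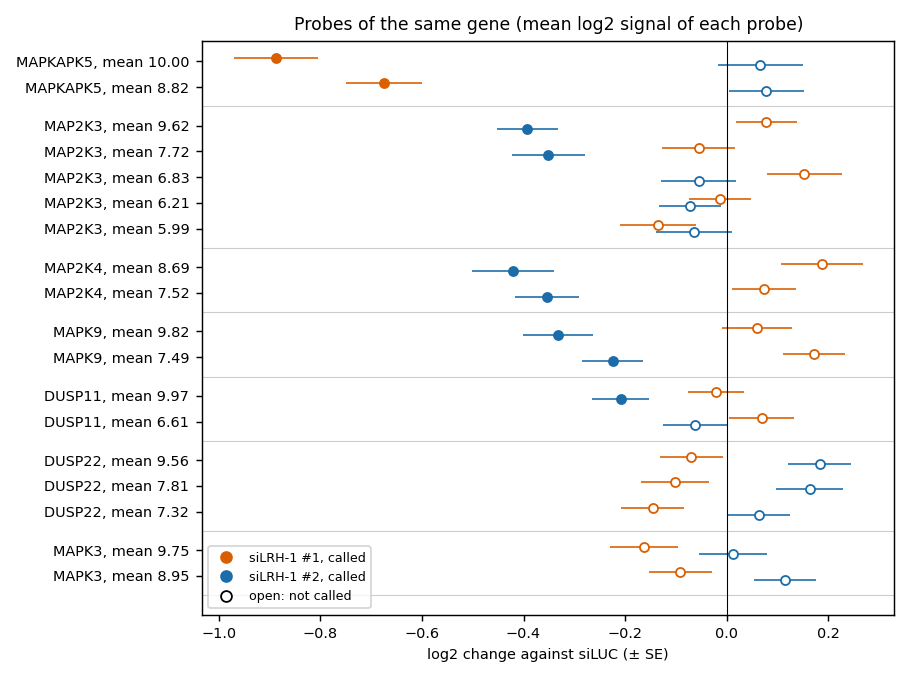
Log2 change against siLUC of every probe of 7 members with more than 1 probe, each row a probe with its mean log2 signal, siLRH-1 #1 in orange and siLRH-1 #2 in blue, filled where called, bars being the standard error of the fit (n = 4 arrays per group). The genes shown are MAPKAPK5, MAP2K3, MAP2K4, MAPK9, DUSP11, DUSP22 and MAPK3, the last not called on its chosen probe. MAP4K5, called between the siRNAs on its chosen probe only, is not shown. Both MAPKAPK5 probes lie to the left with siLRH-1 #1, at -0.89 and -0.67, and the 3 dimmest MAP2K3 probes lie near 0 with siLRH-1 #2.

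Outside the 60 genes, a list of 111 further genes of these pathways held 47 with a named probe, of which limma called 6 with siLRH-1 #1 (4 higher, 2 lower), 10 with siLRH-1 #2 (4 higher, 6 lower) and 13 between the siRNAs (10 higher, 3 lower with siLRH-1 #1). These were 12.8%, 21.3% and 27.7% of the 47, against 10.2%, 10.0% and 14.7% of all named genes. ELK1, a transcription factor that MAP kinases phosphorylate, read 10.18, 9.91, 9.93 and 10.04 in siLUC, 9.03, 8.94, 9.09 and 8.80 with siLRH-1 #1, and 10.04, 9.68, 9.85 and 10.05 with siLRH-1 #2. It had the pattern of MAPKAPK5, low in the siLRH-1 #1 arrays alone, with a fall of 1.05 (2.07-fold, adjusted p = 5.3e-08) and a value of -0.11 with siLRH-1 #2 (adjusted p = 0.536). JUN, the JNK substrate and AP-1 subunit, fell with siLRH-1 #2 by 0.30 (1.23-fold, adjusted p = 0.00144) and gave -0.02 with siLRH-1 #1 (adjusted p = 0.892). The direct difference in JUN was 0.28 (adjusted p = 0.00192). ELK1 and JUN came from a list of p38 and JNK adaptors and factors with 18 genes measured. With siLRH-1 #1, 0 of these were called higher and 1 lower, and with siLRH-1 #2, 1 and 3. Shares of all named genes were 5.05% and 5.17%, and 5.14% and 4.88%. The 1 that rose with siLRH-1 #2 was DDIT3, by 0.31 (adjusted p = 0.0101, lost in 1 of 22 settings). Its difference between the siRNAs was -0.38 (adjusted p = 0.000898), opposite in sign to that of JUN.

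Among 12 measured genes of a list of ERK outputs, siLRH-1 #1 raised 2 and lowered 1, and siLRH-1 #2 raised 1 and lowered 2, against 4.88% to 5.17% of all named genes in each direction. The rise of EPHA2, a receptor tyrosine kinase, with siLRH-1 #1 (0.27, adjusted p = 0.0294) was lost in 5 of 22 settings, without moderation of the spread and when replicate 1, 2 or 4 of siLUC or replicate 4 of siLRH-1 #1 was dropped (up to 0.141). MYC and FOSL1, both induced through ERK, fell with siLRH-1 #2 by 0.29 (adjusted p = 0.00726) and 0.34 (adjusted p = 0.0011), with values of -0.04 (adjusted p = 0.819) and -0.19 (adjusted p = 0.0703) for siLRH-1 #1. Between the siRNAs MYC was called (0.25, adjusted p = 0.0153, lost in 2 of 22 settings) and FOSL1 was not (0.15, adjusted p = 0.153). All siLRH-1 #1 arrays of FOSL1 also lay below siLUC, so its call with siLRH-1 #2 alone does not show that the siRNAs differ. MCL1, an anti-apoptotic protein, fell by 0.38 with siLRH-1 #1 (adjusted p = 0.00127) and was higher by 0.23 with siLRH-1 #2 (adjusted p = 0.0486, lost in 11 of 22 other settings and samplings, up to 0.361). MKNK2, a kinase that ERK and p38 activate to phosphorylate the translation factor eIF4E, fell with siLRH-1 #2 by 0.51 (1.42-fold, adjusted p = 3.77e-05), and its value with siLRH-1 #1 was -0.21 (adjusted p = 0.0703). CDC14B, a dual-specificity phosphatase outside the DUSP names, was higher with both siRNAs, by 0.34 (adjusted p = 0.000987) and 0.22 (adjusted p = 0.0337, lost in 7 of 22 settings, up to 0.0932, and at 0.0667 without siLRH-1 #2 replicate 2). Of 11 measured RAS and RAF genes, limma called 0 with siLRH-1 #1 (3 at an unadjusted p under 0.05). With siLRH-1 #2 it called 1, the scaffold IQGAP1 (0.35 higher, adjusted p = 0.00144). Among all named genes, 10.2% and 10.0% were called. IQGAP1 was not called between the siRNAs (-0.17, adjusted p = 0.137), and all its siLRH-1 #1 arrays also lay above siLUC.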

How the data were processed

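RNA of 12 HT29 samples was hybridised to Illumina HumanHT-12 arrays, 4 per group (siLUC, siLRH-1 #1, siLRH-1 #2). The authors read the arrays with GenomeStudio and Partek (versions not given in the sources used here) and deposited log2 signals after quantile normalisation, with 16381 probes left once those with a detection p above 0.05 in every sample had been removed. A second deposited table, not normalised, has 24 columns whose names match no sample label, and it was not used. Quantile normalisation gives every array the same distribution, so a change shared by most genes would be removed. The number of arrays limits the precision. Detection values per array were not used here.

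Probes were named from GEO's platform annotation (9756 with 1 symbol, 4 with several, 6621 with none), and all 60 members were matched to RefSeq by gene ID. Group means were fitted to all probes and all 3 groups in limma 3.58.1 (R 4.3.3), with moderated spread (9 residual and 12.12 prior degrees of freedom). The 3 contrasts were tested two-sided, with p-values adjusted by Benjamini-Hochberg over 16381 probes and calls at 0.05. Intervals are at 95%. Fold changes are powers of the log2 difference. No pair of arrays held identical values. The members and gene lists were chosen with earlier results of these data known. Named genes were drawn mainly from the called members, the core kinases of the ERK, p38 and JNK branches, and the brightest and dimmest members. From each list of further pathway genes, the called genes with the largest log2 changes were added. The text does not describe every gene so picked, nor every called gene of those lists. Alternatives covered the spread model, array weights, scaling, dim probes, the probe per gene, the adjustment, the samples fitted, the replicate block and leaving out each array.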

Additional observations from a re-analysis of the deposited data

Results flagged for a closer look

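In 132 groups of 4 arrays, for 44 named genes, 13 groups (9.85%) had 1 array farther from the other 3 than Dixon's 95% critical value allows, where chance flags about 1 group in 20. These are single arrays, and a cause was not tested. The 44 genes include DUSP6, which was added after its values had been seen. Its flag is counted among the 13 and is no independent finding.

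In siLUC, MAP2K4 was low in replicate 3 (8.61, others 8.81 to 8.83), MAP3K4 low in replicate 4 (8.28, others 8.40 to 8.42), MAP2K1 high in replicate 4 (11.36, others 11.20 to 11.21) and MAPK3 high in replicate 3 (9.92, others 9.75 to 9.78). With siLRH-1 #1, DUSP18 was high in replicate 3 (7.36, others 7.20 to 7.21), DUSP1 low in replicate 2 (7.90, others 8.08 to 8.09), MAP3K5 high in replicate 4 (8.06, others 7.90 to 7.92), MAP2K2 low in replicate 3 (8.30, others 8.47 to 8.50) and EPHA2 high in replicate 4 (8.84, others 8.61 to 8.64). With siLRH-1 #2, MAP2K4 was high in replicate 2 (8.56, others 8.26 to 8.28), DUSP6 high in replicate 2 (9.80, others 9.48 to 9.50), MAP3K4 high in replicate 1 (8.66, others 8.59 to 8.60) and MAPK3 high in replicate 4 (9.99, others 9.75 to 9.76). The siLRH-1 #2 call of MAP3K4 is lost without either of its arrays named here (adjusted p up to 0.0724), and its siLRH-1 #1 call without siLUC replicate 4 (0.0887).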

How the results depend on the processing

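Of the 31 calls of members over the 3 comparisons, 18 held when each of the 12 arrays was left out in turn, 20 held under the 10 other settings, 16 held throughout, and 0 reversed. Of member values not called, 9 became called under at least 1 setting. Members called with both siRNAs numbered 1 in place of 2 without moderation of the spread, and 0 to 2 with an array left out (0 without siLUC replicate 4, siLRH-1 #1 replicate 4 or siLRH-1 #2 replicate 1). With an array left out, the members called ranged from 3 to 7 with siLRH-1 #1 (3 without siLRH-1 #1 replicate 4, 4 without siLUC replicate 4 or siLRH-1 #1 replicate 1), from 7 to 10 with siLRH-1 #2 and from 11 to 15 between the siRNAs, and the further pathway genes called from 4 to 7, 7 to 10 and 11 to 16. Without moderation of the spread DUSP1 (adjusted p = 0.0504) and DUSP5 (0.155) lost their calls with siLRH-1 #1, and MAP3K5 (0.0513), MAP3K6 (0.059) and DUSP8 (0.0533) theirs with siLRH-1 #2. The cause was not tested. DUSP8 has no value among the brighter probes alone. With the replicate number as a block, 7, 10 and 14 members were called in the 3 comparisons, and 5, 9 and 13 further pathway genes. The labels do not say what the replicate numbers stand for. Deviations of same-numbered arrays correlated at -0.151 to 0.204 (over 0.1 in 2 of 12 pairs), which cannot decide whether those arrays were prepared together.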
